A study of Mus musculus with 13 samples.

Results

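Growth signalling through insulin-like growth factor 1 (IGF1), insulin and the kinase mTOR was followed in the mouse heart with 10 genes. They are the ligand Igf1, its receptor Igf1r, the adapters Irs1 and Irs2, the kinases Akt1, Akt2 and Mtor, the mTOR inhibitor Deptor, and the mTOR targets Eif4ebp1 and Rps6kb1. The genes were listed by name, and every array probe annotated with one of their symbols was taken. Of 45281 probes on the array, 17 carried the symbol of 9 of these genes, and Rps6kb1 was not analysed here. The array named 19057 genes in all. A probe was tested where its signal had a detection p-value under 0.05 on 3 or more arrays. This left 10 of the 17 member probes, for 6 genes, among 18693 tested probes in all.

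IGF1 is made by the liver and by tissues such as the heart, and it activates a receptor tyrosine kinase, IGF1R, that is closely related to the insulin receptor. The activated receptor phosphorylates the adapters IRS1 and IRS2, which recruit PI 3-kinase and so activate AKT. AKT holds FOXO transcription factors out of the nucleus and relieves the brake on mTOR complex 1, which promotes protein synthesis by phosphorylating S6 kinase and the translation repressor encoded by Eif4ebp1. In the heart the pathway is known for its part in postnatal and exercise-induced growth of cardiomyocytes. Myostatin and activins, ligands of the activin receptor, act through SMAD factors and are known in skeletal muscle to restrain AKT and mTOR signalling. Most steps of the pathway are controlled by phosphorylation, which an RNA measurement does not read.

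Total RNA from whole hearts of male C57BL/6 mice aged 8 to 10 weeks was measured on single-colour Illumina arrays. The control group had 5 mice injected with PBS, and the doxorubicin group 5 mice injected with doxorubicin, an anthracycline used in chemotherapy that causes DNA breaks and can injure the heart. Another 3 mice were given sAcvR2B-Fc and then, 48 hours later, doxorubicin. The fusion protein is a soluble activin receptor that traps activins and myostatin. All injections were intraperitoneal, and hearts were collected 20 hours after doxorubicin or PBS. No group given sAcvR2B-Fc alone was analysed here. As the name of a group, sAcvR2B-Fc below means the mice given both agents. Only against doxorubicin alone is this group compared with mice that also had doxorubicin. Against PBS it differs by both agents, and that comparison does not separate them. Each array was taken as 1 mouse.

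The 2 deposited tables name different arrays for 8 of the 13 samples, and 6 arrays change group between them. All values below follow the sample names of the table of non-normalized signals, unless the series matrix names are stated. Cdkn1a, a p53 target that DNA damage induces, was read as a check of the labels. Under the names of the non-normalized table, one of its probes, ILMN_2634083, lay at 7.16 to 8.59 on the log2 scale in PBS hearts and at 9.66 to 11.13 in the 8 doxorubicin-treated hearts. Under the series matrix names the same probe lay at 7.16 to 11.13 and 8.28 to 10.97. Both other Cdkn1a probes separated the treated hearts in the same way under the first set of names and overlapped under the second. Which table is right could not be settled here, and member values under the series matrix names are given beside the results.

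The median raw signal of an array lay between 101.5 and 136.3, with 15989 to 17939 detected probes. Cardiomyocyte markers, with 6 of 7 genes tested, had a summed log2 level of 16.61 to 16.95 in PBS hearts, 16.61 to 16.85 after doxorubicin and 16.4 to 16.76 with sAcvR2B-Fc. All 10 of their probes had negative differences in sAcvR2B-Fc against PBS (median -0.27). Fibroblast markers, with 7 of 7 genes tested, summed to 14.12 to 14.34, 13.99 to 14.2 and 14.03 to 14.11 in this order, and 9 of their 11 probes were negative in sAcvR2B-Fc against PBS (median -0.29). None of the 4 adipocyte markers was tested. Of 5 neutrophil markers, 4 were tested, and S100a8 and S100a9 were called higher in both comparisons with PBS. The summed neutrophil level was 6.72 to 7.48 in PBS hearts, 8.39 to 9.72 after doxorubicin and 8.73 to 8.84 with sAcvR2B-Fc. The atrial markers, with 2 of 4 genes tested, summed to 13.24 to 13.63, 13.08 to 14.27 and 12.62 to 13.03 in the same order. The erythroid markers, with 3 of 4 tested, summed to 13.71 to 14.3, 12.91 to 14.21 and 12.61 to 13.48. No probe of the cardiomyocyte, fibroblast, atrial or erythroid list was called. The part of these differences in the member values was not tested, and in whole hearts fewer cells of a type and less RNA per cell cannot be told apart.

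Promoter sequences are shown for Igf1, Igf1r and Mtor, the members with the smallest unadjusted p-values. They are the 250 bases before the transcription start in RefSeq (GRCm38.p6, plus strand), written 5′ to 3′, at chr10:87860861-87861110, chr7:67952007-67952256 and chr4:148448332-148448581. Capitals mark the letters CAGAC, the half-site that SMAD factors bind, or GTAAACA, a core site of FOXO factors, searched on both strands.
Igf1: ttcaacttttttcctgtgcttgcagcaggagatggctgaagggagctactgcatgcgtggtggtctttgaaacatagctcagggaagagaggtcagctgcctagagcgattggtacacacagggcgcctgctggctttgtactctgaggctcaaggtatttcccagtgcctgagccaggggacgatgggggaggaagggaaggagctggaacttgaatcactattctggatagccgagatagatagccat
Igf1r: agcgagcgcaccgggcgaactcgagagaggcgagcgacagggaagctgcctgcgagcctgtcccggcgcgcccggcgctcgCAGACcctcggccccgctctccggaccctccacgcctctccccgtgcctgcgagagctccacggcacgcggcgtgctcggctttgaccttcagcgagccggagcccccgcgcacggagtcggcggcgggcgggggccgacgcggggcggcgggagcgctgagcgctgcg
Mtor: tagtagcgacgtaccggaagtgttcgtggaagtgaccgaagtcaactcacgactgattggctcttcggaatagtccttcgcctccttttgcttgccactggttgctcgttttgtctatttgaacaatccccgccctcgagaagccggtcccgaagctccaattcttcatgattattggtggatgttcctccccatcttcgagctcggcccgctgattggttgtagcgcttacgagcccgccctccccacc
The Igf1 start in that table lies inside the annotated gene, downstream of its first start. The Igf1r promoter held 1 CAGAC, which begins 169 bases before the start. CAGAC and GTAAACA were both missing from the Igf1 and Mtor windows. Over all 32851 promoter windows of this length, 42.2% held CAGAC and 3.2% held GTAAACA. Among the 12 windows listed for 8 of the members, 5 held CAGAC and 1 held GTAAACA. The Igf1r window was 77.6% G and C with 42 CG dinucleotides. The Igf1 and Mtor windows were 52.8% and 54.4% G and C, with 5 and 19 CG dinucleotides. The median over all windows was 52.4% with 6 CG dinucleotides. A match is a description of the letters and not evidence of a bound site.

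The first comparison asked what doxorubicin alone did to these genes. No member probe was called with limma at an adjusted p under 0.05, against 0.182% of all tested probes (34 probes, 26 higher and 8 lower, or 43 higher and 0 lower after median scaling). At an unadjusted p under 0.05, 2 of 10 member probes were lower after doxorubicin, 1 of Igf1 and 1 of Igf1r, where 11% of all probes passed. No member probe separated the 2 groups without overlap, against 2.55% of all probes. The member differences ran from -0.50 to 0.16 on the log2 scale with a median of -0.08, beside a median of 0 and a range from the 5th to the 95th percentile of -0.34 to 0.35 over all tested probes.

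The second comparison asked what sAcvR2B-Fc changed in doxorubicin-treated hearts. Again no member probe was called, against 0.0642% of all probes (12 probes, 2 higher and 10 lower). At an unadjusted p under 0.05, 3 of 10 member probes were higher with sAcvR2B-Fc, 2 of Igf1r and 1 of Mtor, where 10.8% of all probes passed. For 2 member probes, 1 of Igf1r and 1 of Mtor, the groups did not overlap, against 7.08% of all probes. The member differences ran from -0.22 to 0.50 with a median of 0.28. Over all tested probes the median was 0.02 and the range from the 5th to the 95th percentile -0.47 to 0.40. The 10 member probes stand for 6 genes, and 3 of the 10 kept their sign under the series matrix names.

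A further comparison set the pre-treated hearts against PBS. No member probe was called, against 0.674% of all probes (126 probes, 72 higher and 54 lower, or 17 higher and 8 lower after median scaling). At an unadjusted p under 0.05, 2 of 10 member probes were higher, 1 of Igf1r and 1 of Mtor, where 16.4% of all probes passed. Only the Mtor probe separated the groups without overlap, against 12.6% of all probes. Under the series matrix names no probe of the array was called in any of the 3 comparisons. At an unadjusted p under 0.05, 1.48%, 3.04% and 3.33% of all probes then passed in the 3 comparisons in this order, with 2, 0 and 2 member probes. Where 2 passed, they were both Igf1 probes, each at a lower level than in PBS hearts. The comparisons share arrays, so they are not independent of each other.

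**Figure D1:**
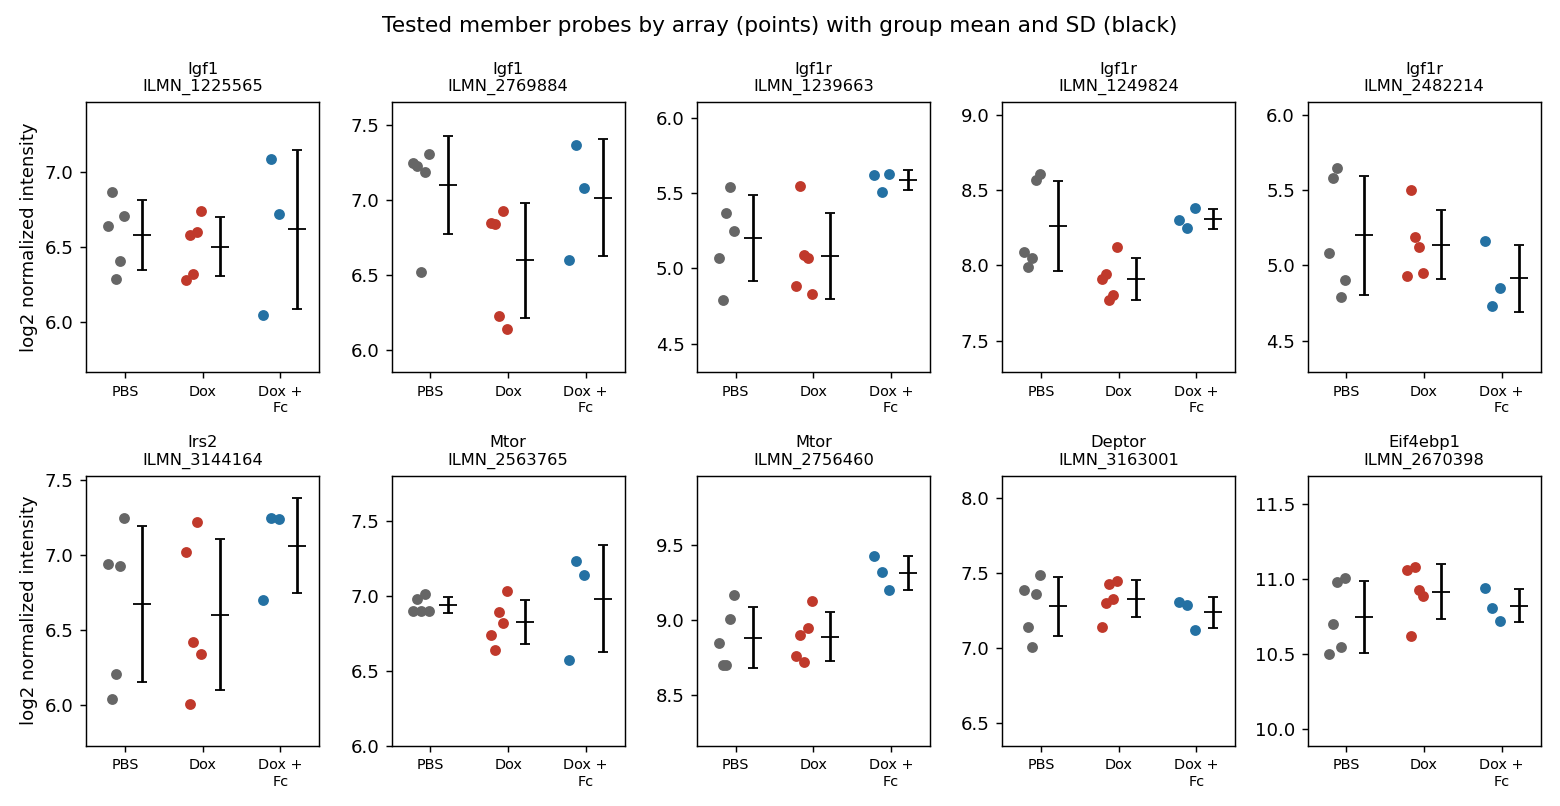
Log2 normalized intensity of the 10 tested member probes on each array (points), grouped as PBS, doxorubicin (Dox) and doxorubicin with sAcvR2B-Fc (Dox + Fc), with the group mean and SD in black; every axis spans the same number of log2 units. The 3 sAcvR2B-Fc arrays lay above all others only for Mtor ILMN_2756460, at 9.20 to 9.43.

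Igf1, the ligand, was read by a pair of probes that were detected on all 13 arrays. Probe ILMN_2769884 read 7.25, 7.23, 6.52, 7.19 and 7.31 in the PBS hearts on the log2 scale. It read 6.85, 6.84, 6.23, 6.93 and 6.14 after doxorubicin, and 6.60, 7.37 and 7.08 with sAcvR2B-Fc. Every doxorubicin heart lay below 4 of the 5 PBS hearts, and the groups overlapped through 1 PBS heart. The log2 difference between doxorubicin and PBS was -0.50 ± 0.21 (SE, n = 5 and 5, 95% interval -0.95 to -0.06), a 1.42-fold lower level with an adjusted p of 0.373 by limma. With sAcvR2B-Fc the probe differed from doxorubicin alone by 0.42 ± 0.24 (adjusted p = 0.518) and from PBS by -0.08 ± 0.24 (adjusted p = 0.897). The former difference was 0.24 without sAcvR2B-Fc replicate 2 and 0.63 without sAcvR2B-Fc replicate 1, the extremes of leaving out 1 array at a time, and the latter was -0.26 and 0.12 in these fits.

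The other Igf1 probe, ILMN_1225565, did not repeat this order. It read 6.29 to 6.87 with a median of 6.64 in PBS hearts and 6.28 to 6.74 with a median of 6.58 after doxorubicin, and the difference of group means was -0.08 ± 0.18 (adjusted p = 0.911). With sAcvR2B-Fc it read 6.05, 7.09 and 6.72, so 1 group held both the lowest and the highest of all 13 values. The probes of this gene had a correlation of 0.52 over the 13 arrays, which share 1 normalization. With arrays assigned by the series matrix, both were lower in doxorubicin than in PBS hearts, by -0.38 ± 0.17 for ILMN_2769884 and -0.32 ± 0.15 for ILMN_1225565 on the log2 scale. Under those names both were also lower with sAcvR2B-Fc than in PBS hearts, by -0.80 ± 0.19 for ILMN_2769884, without overlap, and by -0.42 ± 0.17 for ILMN_1225565. None of these differences was called, and the smallest of their unadjusted p-values in limma was 0.00111.

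Igf1r encodes the receptor that IGF1 activates. Of its 4 probes, ILMN_1249824 was detected on all arrays, ILMN_1239663 on 9 and ILMN_2482214 on 6, and ILMN_1232222 on none. Probe ILMN_1249824 read 8.09, 7.99, 8.05, 8.57 and 8.61 in PBS hearts, 7.91, 7.94, 7.77, 7.80 and 8.12 after doxorubicin, and 8.30, 8.25 and 8.38 with sAcvR2B-Fc. All 3 sAcvR2B-Fc hearts lay above all 5 doxorubicin hearts, and they lay within the range of the PBS hearts. The difference between doxorubicin and PBS was -0.35 ± 0.13 (n = 5 and 5, 95% interval -0.64 to -0.07, adjusted p = 0.329). The difference between sAcvR2B-Fc and doxorubicin alone was 0.40 ± 0.15 (n = 3 and 5, 0.07 to 0.73, adjusted p = 0.416). Both rest on the same 5 doxorubicin arrays, so the opposite signs are not separate observations. The difference between sAcvR2B-Fc and PBS was 0.04 ± 0.15.

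The remaining Igf1r probes lay near background. Probe ILMN_1239663 read 5.07, 4.79, 5.37, 5.54 and 5.25 in PBS hearts, 4.88, 5.55, 5.09, 5.07 and 4.83 after doxorubicin, and 5.62, 5.51 and 5.63 with sAcvR2B-Fc. With sAcvR2B-Fc all 3 values lay above 4 of the 5 doxorubicin values, and the probe was detected on 3 of 3 such arrays, 3 of 5 doxorubicin arrays and 3 of 5 PBS arrays. It differed by 0.50 ± 0.18 from doxorubicin alone (adjusted p = 0.396) and by 0.39 ± 0.18 from PBS (adjusted p = 0.3). Probe ILMN_2482214 ran the other way, with differences of -0.22 ± 0.20 and -0.28 ± 0.20 in the same comparisons. Its correlation with ILMN_1249824 over the 13 arrays was -0.53. With the series matrix assignment the difference of ILMN_1249824 was -0.03 ± 0.18 for doxorubicin against PBS and 0.04 ± 0.20 for sAcvR2B-Fc against doxorubicin, and that of ILMN_1239663 in the latter comparison was -0.07 ± 0.22.

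Irs1 and Irs2 encode the adapters between the receptors and PI 3-kinase. The Irs1 probe was detected on no array, so its level was not well above background and no difference is given. The Irs2 probe ILMN_3144164 was detected on all 13 arrays. It read 6.94, 6.04, 6.21, 6.93 and 7.25 in PBS hearts, 7.02, 6.01, 6.42, 7.22 and 6.34 after doxorubicin, and 6.70, 7.25 and 7.24 with sAcvR2B-Fc. The PBS and doxorubicin hearts covered the same range, with a difference of -0.07 ± 0.26 (95% interval -0.64 to 0.49, adjusted p = 0.953). The SD within groups was 0.48, at percentile 94.7 of all tested probes, whose median SD was 0.23. The sAcvR2B-Fc hearts differed from doxorubicin alone by 0.47 ± 0.31 (-0.19 to 1.12, adjusted p = 0.573), and under the series matrix names by -0.30 ± 0.30.

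Akt1 and Akt2 encode the kinases that pass the signal on to FOXO factors and mTOR. The Akt1 probe was detected on 1 PBS array, where it read 5.37, and on no other. Both Akt2 probes were detected on no array, with log2 values of 4.35 to 4.81. None of the 3 was tested, and the arrays give no measure of these kinases above background. Of the 7 member probes that were not tested, 6 were detected on no array, and their values including Akt1 ran from 4.35 to 5.37. The levels of different probes are not comparable with each other, since probes differ in how well they hybridise.

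**Figure D2:**
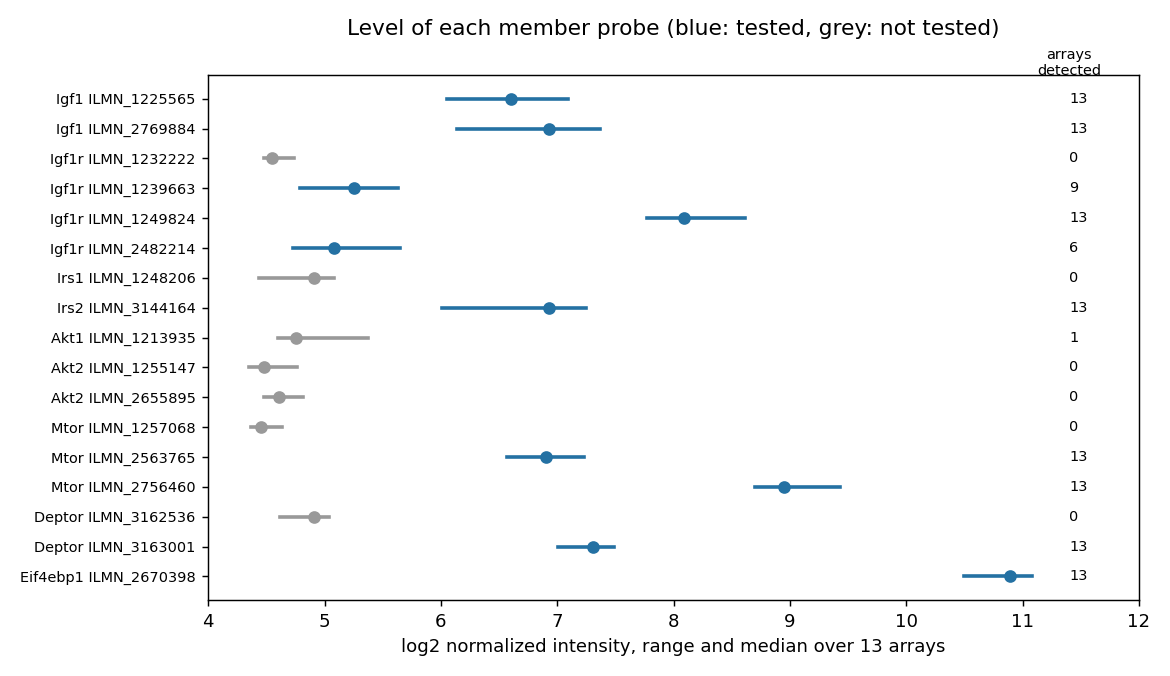
Range (line) and median (point) of log2 normalized intensity over the 13 arrays for all 17 member probes, with the number of arrays on which each was detected; tested probes are blue and the others grey. The 7 grey probes span 4.35 to 5.37, and positions of different probes cannot be ranked as levels of their genes.

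Mtor encodes the kinase at the centre of both mTOR complexes. Probe ILMN_2756460 read 8.85, 8.70, 8.70, 9.01 and 9.17 in PBS hearts, 8.76, 8.90, 8.72, 8.95 and 9.13 after doxorubicin, and 9.43, 9.32 and 9.20 with sAcvR2B-Fc. The PBS and doxorubicin hearts overlapped throughout, and all 3 sAcvR2B-Fc hearts lay above the other 10. Doxorubicin and PBS differed by 0.01 ± 0.12 (95% interval -0.24 to 0.26). The sAcvR2B-Fc hearts differed from doxorubicin alone by 0.42 ± 0.13 (n = 3 and 5, 0.13 to 0.71), a 1.34-fold higher level with an adjusted p of 0.359 by limma. They differed from PBS by 0.43 ± 0.13 (n = 3 and 5, 0.14 to 0.72, adjusted p = 0.129). Leaving out 1 array at a time gave differences of 0.37 to 0.48 and of 0.37 to 0.50 in these 2 comparisons, and no fit called the probe.

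The second tested Mtor probe, ILMN_2563765, did not show the separation. It read 6.90 to 7.01 in PBS hearts, 6.64 to 7.03 after doxorubicin, and 6.57, 7.23 and 7.14 with sAcvR2B-Fc. Its differences were 0.16 ± 0.14 from doxorubicin alone and 0.04 ± 0.14 from PBS, and 1 of the 3 sAcvR2B-Fc values was the lowest of all. The correlation between both Mtor probes over the 13 arrays was 0.14. The remaining Mtor probe, ILMN_1257068, was detected on no array. When arrays followed the series matrix, ILMN_2756460 differed by 0.17 ± 0.18 and 0.09 ± 0.18 in the comparisons of sAcvR2B-Fc with doxorubicin and with PBS, and the groups overlapped.

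Deptor encodes a protein that binds and inhibits mTOR. Its probe ILMN_3163001 read 7.39, 7.14, 7.01, 7.36 and 7.49 in PBS hearts, 7.14, 7.30, 7.43, 7.33 and 7.45 after doxorubicin, and 7.31, 7.29 and 7.12 with sAcvR2B-Fc. All 3 groups overlapped, and the SD within groups of 0.15 was the smallest among the tested member probes. The differences were 0.05 ± 0.11 (95% interval -0.18 to 0.28) for doxorubicin against PBS, -0.09 ± 0.12 (-0.36 to 0.18) for sAcvR2B-Fc against doxorubicin, and -0.04 ± 0.12 (-0.31 to 0.23) for sAcvR2B-Fc against PBS. The other Deptor probe was detected on no array.

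Eif4ebp1 encodes the repressor of cap-dependent translation that mTOR complex 1 inactivates by phosphorylation. Its probe ILMN_2670398 read 10.50, 10.70, 10.98, 10.55 and 11.01 in PBS hearts, 11.06, 10.62, 11.08, 10.93 and 10.89 after doxorubicin, and 10.94, 10.81 and 10.72 with sAcvR2B-Fc. The doxorubicin hearts reached slightly higher values but overlapped with PBS, and the sAcvR2B-Fc hearts lay inside the range of both. Doxorubicin and PBS differed by 0.16 ± 0.13 (-0.11 to 0.44, adjusted p = 0.688). The sAcvR2B-Fc hearts differed from doxorubicin by -0.09 ± 0.15 (-0.40 to 0.22) and from PBS by 0.08 ± 0.15 (-0.24 to 0.39). The series matrix names gave differences of 0.01 ± 0.13, 0.13 ± 0.15 and 0.14 ± 0.15 in the same comparisons.

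**Figure D3:**
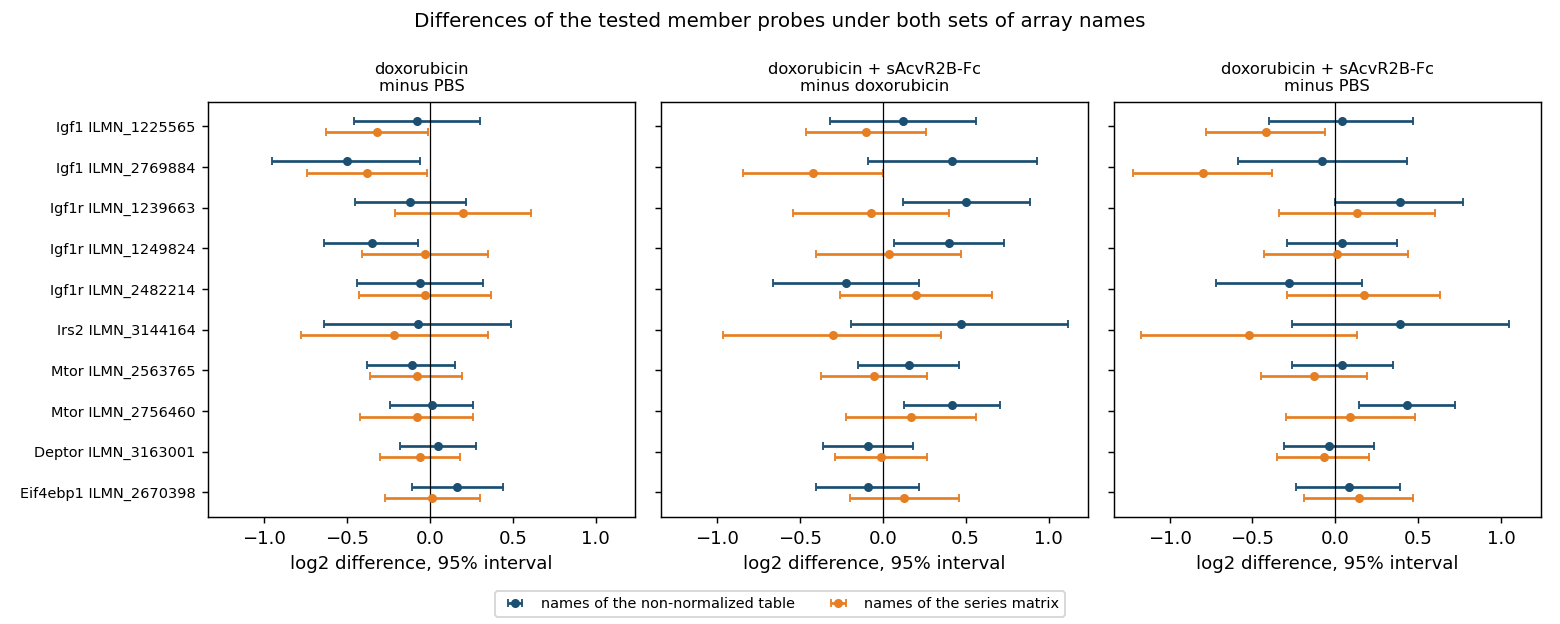
Log2 differences with 95% intervals of the 10 tested member probes in the 3 comparisons, with arrays assigned by the non-normalized table (dark blue) or by the series matrix (orange). For Igf1 ILMN_2769884 both assignments gave a lower level in doxorubicin than in PBS hearts (-0.50 and -0.38), while its difference between sAcvR2B-Fc and doxorubicin was 0.42 under the first and -0.42 under the second.

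The signs of the member differences were the same under both sets of names for 7 of 10 probes in doxorubicin against PBS, for 3 of 10 in sAcvR2B-Fc against doxorubicin, and for 6 of 10 in sAcvR2B-Fc against PBS. Median scaling in place of quantile normalization moved the median of all tested probes by 0.12 and 0.13 in the comparisons of the treated groups with PBS. Under it, Igf1 ILMN_2769884 differed by -0.32 ± 0.28 between doxorubicin and PBS, and Mtor ILMN_2756460 by 0.60 ± 0.24 between sAcvR2B-Fc and PBS. Under it Deptor ILMN_3163001 had 0.22 ± 0.21 in doxorubicin against PBS and 0.14 ± 0.24 in sAcvR2B-Fc against PBS, where its sign turned.

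Among the members themselves, levels on the 13 arrays went together only in part. Irs2 and the near-background Igf1r probe ILMN_2482214 had a correlation of -0.81, and of -0.80 after the group means were removed. Mtor ILMN_2756460 and Igf1r ILMN_1249824 had one of 0.63, and of 0.78 within groups. Igf1 ILMN_1225565 and Mtor ILMN_2563765 had one of 0.72, and of 0.71 within groups. Likeness to other genes was searched over the tested probes with 1 symbol, with clone and predicted names left out. The genes most like Mtor ILMN_2756460 were Ift27 (r = 0.95), Coq9 (0.94), Sec24c and Dhx29 (both 0.93) and Dguok (0.92). Those most like Igf1 ILMN_2769884 were Nfic and Tbc1d20 (both 0.89), Neurl3 (0.87), and Dynlrb1 and Papola (both 0.86). These are descriptions over 13 arrays that share a normalization, and the genes were picked as the highest of all probes searched.

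The wider pathway was described with 5 lists of 78 genes in all, of which 63 were tested with 113 probes. In doxorubicin against PBS no pathway probe was called by limma, and 14 of 113 (12.4%) had an unadjusted p under 0.05, against 11% of all tested probes. In sAcvR2B-Fc against doxorubicin none was called, and 18 (15.9%) had such a p, against 10.8% of all. In sAcvR2B-Fc against PBS 1 of 113 was called, that of Sgk1, where 0.674% of all tested probes were called, and 21 (18.6%) had such a p, against 16.4% of all. The median difference over the lists was -0.01, -0.01 and -0.02 in this order.

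Sgk1 encodes a kinase related to AKT that mTOR complex 2 activates and glucocorticoids induce. It read 12.12, 11.96, 11.89, 12.27 and 11.91 in PBS hearts, 12.37, 12.18, 12.29, 11.94 and 12.14 after doxorubicin, and 12.67, 12.90 and 12.95 with sAcvR2B-Fc. All 3 sAcvR2B-Fc hearts lay above the other 10, and the PBS and doxorubicin hearts overlapped. Sgk1 was 1.75-fold higher with sAcvR2B-Fc and doxorubicin than with PBS. The log2 difference was 0.81 ± 0.13 (n = 3 and 5, adjusted p = 0.0138 by limma). Against doxorubicin alone the difference was 0.66 ± 0.13 (adjusted p = 0.128), and it was called without background correction (adjusted p = 0.0419) and with array weights (0.044). The call against PBS was lost without sAcvR2B-Fc replicate 2 (adjusted p = 0.0861) or replicate 3 (0.0591), and after median scaling (0.147). With the series matrix names the difference from PBS was 0.07 ± 0.25, and with the 7 arrays whose group does not depend on the table it was 0.68 ± 0.20 (adjusted p = 0.573). In the latter fit the sAcvR2B-Fc group is 1 array, which is assumed to vary like the other groups.

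**Figure D4:**
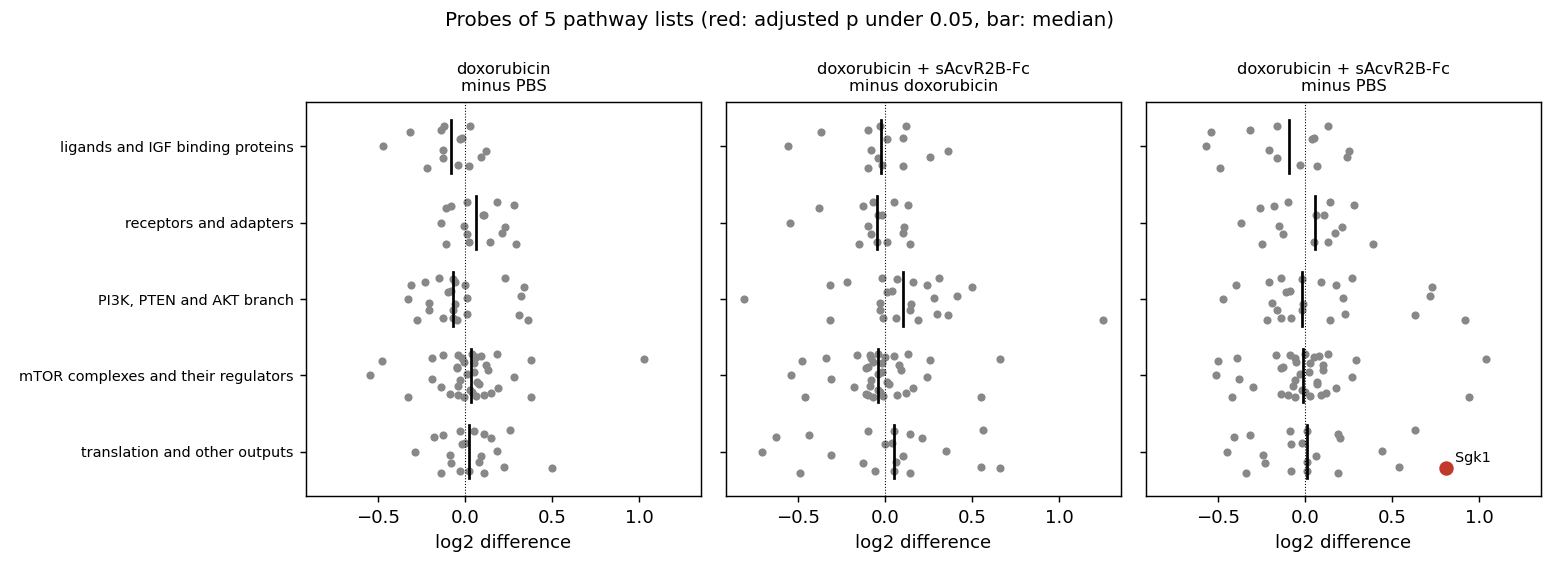
Log2 differences of the 113 tested probes of 5 pathway lists in the 3 comparisons, 1 point per probe, with the list median as a bar. The single called probe, Sgk1 at 0.81 in sAcvR2B-Fc against PBS, is red.

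Among ligands and binding proteins, with 8 of 10 genes and 14 probes tested, 4 probes had positive and 10 negative differences in doxorubicin against PBS (median -0.08). Igf2, the second IGF ligand, read 10.18 to 10.44 in PBS hearts and 9.86 to 10.15 after doxorubicin, without overlap, and 10.21, 10.41 and 10.52 with sAcvR2B-Fc. Its difference was -0.32 ± 0.10 in doxorubicin against PBS (adjusted p = 0.219) and 0.36 ± 0.11 in sAcvR2B-Fc against doxorubicin (adjusted p = 0.359), on the same doxorubicin arrays. By the series matrix names these Igf2 differences were -0.08 ± 0.14 and -0.04 ± 0.16. Ghr encodes the growth hormone receptor, through which IGF1 production is driven. Its probe ILMN_3138922 differed by -0.49 ± 0.13 in sAcvR2B-Fc against PBS (adjusted p = 0.1), and with array weights it was called (adjusted p = 0.0418). The other Ghr probes had -0.57 ± 0.19 (ILMN_1247348) and -0.32 ± 0.11 (ILMN_1253504) in this comparison. The groups did not overlap at any of the 3, as at 12.6% of all tested probes. In doxorubicin against PBS, ILMN_1247348 had -0.47 ± 0.16 (adjusted p = 0.274), ILMN_1253504 -0.22 ± 0.09 and ILMN_3138922 -0.12 ± 0.12. In sAcvR2B-Fc against doxorubicin they had -0.10 ± 0.19, -0.10 ± 0.11 and -0.37 ± 0.13 in this order.

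Among receptors and adapters, with 8 of 10 genes and 16 probes tested, the medians were 0.06, -0.04 and 0.06 in the 3 comparisons. Grb10, an adapter that restrains insulin and IGF1 receptors, differed by 0.21 ± 0.09 at probe ILMN_2518412 in doxorubicin against PBS (adjusted p = 0.378) without overlap, and by -0.01 ± 0.18 at ILMN_2546546. Ptpn11, the phosphatase SHP2, differed by 0.29 ± 0.12 at probe ILMN_1245874 in the same comparison (adjusted p = 0.387), and by 0.23 ± 0.14 and 0.18 ± 0.08 at its other probes. The insulin receptor Insr differed by 0.11 ± 0.09 at its probe ILMN_1242794 (adjusted p = 0.707) and by -0.14 ± 0.17 at ILMN_1251719 (adjusted p = 0.814).

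In the branch of PI 3-kinase and AKT, 14 of 16 genes were tested with 24 probes. Pik3r1, the regulatory subunit of PI 3-kinase, had 3 tested probes. Probe ILMN_3114641 read 10.96, 10.87, 10.93, 11.20 and 11.64 in PBS hearts, 11.66, 10.94, 11.58, 11.35 and 11.21 after doxorubicin, and 11.82, 11.81 and 11.93 with sAcvR2B-Fc. The 3 last values lay above all others. The probe differed from PBS by 0.73 ± 0.19 (adjusted p = 0.0784), and the other Pik3r1 probes by 0.72 ± 0.21 (ILMN_2473531, adjusted p = 0.11) and 0.92 ± 0.30 (ILMN_3040050, adjusted p = 0.146). Probe ILMN_3114641 was called in this comparison without background correction (adjusted p = 0.0475), with array weights (0.0424), without PBS replicate 5 (0.039) and without doxorubicin replicate 2 (0.0475). By the series matrix names its difference was 0.00 ± 0.27. Probe ILMN_3040050 was detected on 3 of 3 sAcvR2B-Fc arrays, 1 of 5 doxorubicin arrays and 2 of 5 PBS arrays, so its differences start near background. Against doxorubicin alone ILMN_3040050 differed by 1.25 ± 0.30, a 2.39-fold higher level without overlap (adjusted p = 0.245), and ILMN_2473531 and ILMN_3114641 by 0.36 ± 0.21 and 0.50 ± 0.19. Pik3r3, another regulatory subunit, differed by -0.81 ± 0.27 at ILMN_1248521 (adjusted p = 0.379) and by -0.01 ± 0.12 at ILMN_1226157 in that comparison. At ILMN_1248521 the sAcvR2B-Fc hearts read 7.36, 6.68 and 6.68, and the PBS hearts 7.45, 7.82, 7.83, 6.84 and 6.93. These groups overlapped, with a difference of -0.47 ± 0.27. Foxo3, a transcription factor that AKT inhibits, differed by 0.63 ± 0.19 in sAcvR2B-Fc against PBS (adjusted p = 0.128). It differed by 0.32 ± 0.17 in doxorubicin against PBS and by 0.30 ± 0.19 in sAcvR2B-Fc against doxorubicin, neither called. Inppl1, the lipid phosphatase SHIP2, differed by -0.28 ± 0.08 at ILMN_2620913 in doxorubicin against PBS (adjusted p = 0.194), and by -0.23 ± 0.09 and -0.31 ± 0.12 at its other probes.

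Among the mTOR complexes and their regulators, with 21 of 25 genes and 38 probes tested, the medians were 0.03, -0.04 and -0.01. Rragd, one of the Rag GTPases that bring mTOR complex 1 to the lysosome, read 7.88, 8.02, 7.83, 7.97 and 7.81 in PBS hearts at probe ILMN_1216024. It read 7.24, 7.47, 7.37, 7.20 and 7.49 after doxorubicin, and 7.16, 7.47 and 7.59 with sAcvR2B-Fc. All 8 treated hearts lay below all PBS hearts. The difference was -0.55 ± 0.10 after doxorubicin (adjusted p = 0.0527) and -0.50 ± 0.12 with sAcvR2B-Fc against PBS (adjusted p = 0.0691). The doxorubicin difference was called with probes detected on all 13 arrays (adjusted p = 0.0325), without background correction (0.0282), with array weights (0.0154), without doxorubicin replicate 2 (0.0185) and without sAcvR2B-Fc replicate 1 (0.0465). That with sAcvR2B-Fc was called under the first and second of these settings (0.0458 and 0.0384). The second Rragd probe, ILMN_2775202, had 0.09 ± 0.14 and -0.03 ± 0.16 in these comparisons, so the probes of this gene disagree. Under the series matrix names the first probe had -0.15 ± 0.18 and -0.18 ± 0.21.

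Ddit4 and Sesn2 encode stress-induced inhibitors of mTOR complex 1 and are known p53 targets. Ddit4 read 8.45, 8.37, 8.65, 8.33 and 7.94 in PBS hearts, 9.54, 9.04, 9.94, 9.66 and 8.69 after doxorubicin, and 9.83, 9.37 and 8.65 with sAcvR2B-Fc. All doxorubicin hearts lay above all PBS hearts, the lowest (8.69) just above the highest PBS value (8.65). The Ddit4 difference was 1.03 ± 0.25 (adjusted p = 0.135) after doxorubicin and 0.94 ± 0.29 (adjusted p = 0.126) with sAcvR2B-Fc against PBS. Sesn2 differed by 0.38 ± 0.23 (adjusted p = 0.583) and 1.04 ± 0.26 (adjusted p = 0.0784) in the same comparisons, from a level detected on 1 of 5 PBS arrays. With array weights the Ddit4 probe was called after doxorubicin (adjusted p = 0.0387) and the Sesn2 probe in sAcvR2B-Fc against PBS (0.0424). Under the series matrix names Ddit4 had 0.34 ± 0.38 and 0.30 ± 0.43, and Sesn2 had -0.25 ± 0.35 in sAcvR2B-Fc against PBS.

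**Figure D5:**
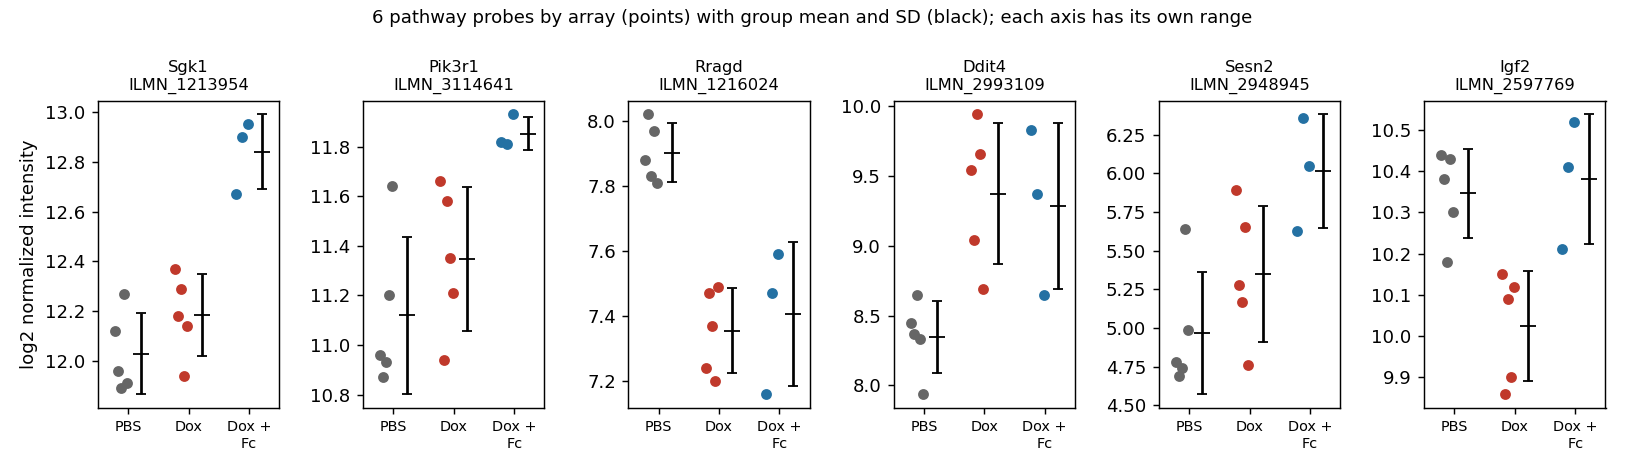
Log2 normalized intensity of 6 pathway probes on each array (points) in the 3 groups, with the group mean and SD in black; each axis has its own range. Sgk1 lies between 12.67 and 12.95 on the 3 sAcvR2B-Fc arrays, and Rragd lies below all PBS values on the 8 treated arrays.

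Prkaa2, a catalytic subunit of the energy sensor AMPK, which restrains mTOR complex 1, differed by -0.48 ± 0.18 after doxorubicin at probe ILMN_1227113 (adjusted p = 0.316) and by -0.19 ± 0.18 at ILMN_2803138. Against doxorubicin alone the first of these probes differed by 0.55 ± 0.21 with sAcvR2B-Fc without overlap (adjusted p = 0.409), and the second by -0.31 ± 0.21. Rheb, the GTPase that activates mTOR complex 1, differed by -0.01 ± 0.08 after doxorubicin (adjusted p = 0.974). In the same comparison the complex member Rptor had 0.08 ± 0.09 (ILMN_1250017) and 0.03 ± 0.30 (ILMN_1220256), and Mlst8 had 0.13 ± 0.09, -0.02 ± 0.10 and -0.03 ± 0.11 at its 3 probes. The brake Tsc2 had 0.11 ± 0.11, 0.07 ± 0.17 and 0.04 ± 0.10 at its 3 probes. Rictor, of the same list, differed by -0.34 ± 0.12 at ILMN_1241522 in sAcvR2B-Fc against doxorubicin (adjusted p = 0.402 by limma). Against PBS this probe differed by -0.38 ± 0.12 without overlap (adjusted p = 0.142). The other Rictor probes, not detected on all arrays, had 0.13 ± 0.16, -0.02 ± 0.25 and -0.09 ± 0.20 in sAcvR2B-Fc against doxorubicin. Among translation factors and other outputs, 12 of 17 genes were tested with 21 probes. Eif4b, a translation initiation factor downstream of S6 kinase, had 0.50 ± 0.18 after doxorubicin at ILMN_2753323 (adjusted p = 0.299) and 0.26 ± 0.34 at ILMN_1243394. Elongation factor Eef2 had 0.63 ± 0.25 with sAcvR2B-Fc against PBS at ILMN_1239110 (adjusted p = 0.226), and 0.44 ± 0.23 and 0.54 ± 0.27 at its other probes.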

How the data were processed

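Per the labels, total RNA of 13 mouse hearts was labelled with biotin and hybridised to single-colour arrays. The deposited table of non-normalized values holds 1 signal intensity for each probe on each array, with a detection p-value beside it, per the file headers. The deposited series matrix holds processed intensity values; its scale was read from the values (linear, column medians 6.8 to 6.9), with the steps and software of both tables not given in the sources used here. It served in alternatives only, with values under 1 set to 1.

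Each series matrix column matched 1 column of the other table with a Spearman correlation of 0.99999 or more, and the next best reached at most 0.904. Both tables gave the same array to 5 samples.

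The neqc function of limma (version 3.58.1 in R 4.3.3) corrected background through the detection p-values, applied quantile normalization with an offset of 16 and took log2. One limma model (lmFit, eBayes, two-sided) covered the 3 groups, and p-values were adjusted by Benjamini-Hochberg over 18693 probes. Called means an adjusted p under 0.05. Errors of differences are SEs from the model, and intervals are 95% intervals. The fit was tested on simulated data. Probe names came from the platform annotation (34885 probes with 1 symbol, 18 with several, 10378 unnamed here), and 99.66% of gene identifiers were found in the GRCm38.p6 gene table. Gene coordinates are not given, since no build is named for the array files. The number of arrays limits the precision, and the p-values set each difference against the spread between these arrays within groups.

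The text gives all member probes. Of each pathway list it draws on the called genes and up to 3 further genes of smallest p per comparison, and on Insr, Rheb, Rptor, Mlst8 and Tsc2, picked for their role. Likeness is the highest Pearson r over 13 arrays. Members and lists were chosen with earlier results of these data known. Alternatives covered the array names, background correction, scaling, filters, 1 probe per gene, array weights, the groups in the fit, a replicate block and leaving out each array.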

Additional observations from a re-analysis of the deposited data

Results flagged for a closer look

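In PBS replicate 3, Igf1 probe ILMN_2769884 read 6.52 on the log2 scale, while the other 4 PBS hearts read 7.19 to 7.31. The gap to its neighbour was 0.85 of the range of the group, above the limit of 0.71 used for 5 values. Without this array the difference between doxorubicin and PBS was -0.65, against -0.50 with it, and was still not called. The series matrix names this array as a sAcvR2B-Fc sample. Among 42 groups of 5 values examined, this was the 1 that passed the limit, and chance flags about 1 in 20. Groups of 3 were not examined.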

How the results depend on the processing

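No member probe was called under any alternative run. The counts over all probes (34 in doxorubicin against PBS, 12 in sAcvR2B-Fc against doxorubicin and 126 in sAcvR2B-Fc against PBS) depended on the setting. They were 0, 0 and 0 under the series matrix names on either table's values, and 0, 0 and 6 with only the arrays whose group is the same in both tables, where the sAcvR2B-Fc group is 1 array assumed to vary like the others. Without a filter the first was 9. With probes detected on all 13 arrays the third was 256, without background correction 338 and after median scaling 25. With array weights the counts were 165, 31 and 301, and with only the 2 groups compared the second was 7. With the replicate number as a block they were 4, 21 and 213, and the smallest adjusted p of a member probe was 0.0514. Same-numbered arrays had deviations with correlations of -0.27 to 0.39, not all above 0.1, so the numbers were not taken to pair the mice. Leaving out 1 array at a time gave 2 (without doxorubicin replicate 1) to 387 (without doxorubicin replicate 2), 9 to 13, and 14 (without sAcvR2B-Fc replicate 2) to 353 (without doxorubicin replicate 2) calls. The causes were not tested.

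Among member differences whose main interval excluded 0, only that of Igf1r ILMN_1239663 in sAcvR2B-Fc against doxorubicin turned its sign, to -0.07 and -0.20 under the series matrix names with the values of the first and the second table. Under those names 14 of all 30 member differences had another sign than in the main setting, on either table's values. With only the arrays in the same group in both tables, 12 of 30 did, those with sAcvR2B-Fc resting on 1 array, and after median scaling 6 of 30. Under the series matrix names, again with the values of the first and the second table, the following turned in sAcvR2B-Fc against doxorubicin: Igf2 (-0.04, -0.03), Pik3r1 ILMN_3040050 (-0.24, -0.68), Pik3r3 (0.05, 0.07) and Sgk1 (-0.18, -0.17). In sAcvR2B-Fc against PBS these were Sesn2 (-0.25, -0.51) and Foxo3 (-0.10, -0.18). The difference of Pik3r1 ILMN_3114641 in that comparison fell to 0.00 on either table's values. Slide as a block was not run, since the files name no slides. Signals near background limit what can be said of Irs1, Akt1, Akt2 and part of Igf1r.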
